A study of Mus musculus with 96 samples.

Results

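Ttr, Kl, Folr1, Clic6, Otx2, Aqp1, Foxj1, Ccdc153, Tmem212 and Rarres2 are 10 of the 19918 genes counted in this series. They were chosen by name, 6 as genes of the choroid plexus (Ttr, Kl, Folr1, Clic6, Otx2 and Aqp1) and 4 as genes of the ependyma (Foxj1, Ccdc153, Tmem212 and Rarres2). The series holds sequenced polyadenylated RNA from punches of 48 mice of the core genotypes (FCG) model, with 1 library from the nucleus accumbens (NAc) and 1 from the prefrontal cortex (PFC) of each. In that model the testis-determining gene Sry is missing from the Y chromosome and is supplied by a transgene, so that gonad type and sex chromosomes can be crossed. The genotypes were XX and XY-, which lack Sry and have ovaries, and XXSry and XY-Sry, which carry the transgene and have testes, so the comparison of testes with ovaries is also one of mice with and without the transgene. Control mice were left unstressed, and stressed mice had 3 restraint sessions of 1 hour over 6 days (subchronic variable stress). In each region there were 5 control and 6 stressed XX mice, 6 and 6 XXSry, 7 and 6 XY-, and 6 and 6 XY-Sry. The labels place the mice in 3 cohorts. No stressed XXSry or XY- mouse was in cohort 2, and no control XX or XXSry mouse was in cohort 3. The sources used here do not give strain or age.

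The ependyma is the sheet of multiciliated cells that lines the brain ventricles, and the choroid plexus is the folded epithelium inside the ventricles that secretes cerebrospinal fluid. Foxj1 switches on the genes of motile cilia in ependymal cells, and RFX transcription factors act with it on many of the same genes through a DNA motif called the X-box. The NAc lies beside the lateral ventricle, whose wall carries ependyma, while the PFC is further from it. Several of these genes are also transcribed elsewhere in the brain: Kl in neurons, Rarres2 in other non-neuronal cells, and Otx2 in some septal and midbrain territories.

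Of the 4 ependymal genes, only Ccdc153 and Tmem212 had a promoter window, so their promoters are shown. They were also the ependymal genes with the least signal in PFC. Both windows run from 250 bases before to 50 bases after the start of the gene, 5′ to 3′ on the gene's strand, from RefSeq for build GRCm38.p6. Capitals mark the letters GTTGCC or GTTACC, the core of the X-box, on either strand; these letters were chosen after the sequences had been read.
Ccdc153, chr9:44240427-44240726, plus strand: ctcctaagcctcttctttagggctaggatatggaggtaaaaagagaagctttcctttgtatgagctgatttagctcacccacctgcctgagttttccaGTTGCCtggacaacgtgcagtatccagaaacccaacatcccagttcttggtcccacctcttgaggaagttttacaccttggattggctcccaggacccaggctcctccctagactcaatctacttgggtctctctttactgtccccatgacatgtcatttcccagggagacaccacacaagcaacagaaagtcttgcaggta
Tmem212, chr3:27896319-27896618, minus strand: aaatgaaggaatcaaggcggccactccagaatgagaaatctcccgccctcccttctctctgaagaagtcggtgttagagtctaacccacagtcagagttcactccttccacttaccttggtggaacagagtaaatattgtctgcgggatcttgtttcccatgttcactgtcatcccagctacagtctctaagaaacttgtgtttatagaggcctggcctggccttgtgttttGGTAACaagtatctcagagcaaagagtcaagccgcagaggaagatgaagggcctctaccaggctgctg

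In the Ccdc153 window GTTGCC began at -152 from the start of the gene, and in the Tmem212 window GTTACC lay on the opposite strand, read as GGTAAC from -18. GTTGCC also stood in the Aqp1 window, at -111, and in 2 of the 4 Otx2 windows, which overlap each other. The Kl window held neither. One or the other of these letters stood in 18.6% of the 32851 promoter windows of the same length. Because the letters were chosen from these same sequences, how often they stood here cannot be compared with that share. The table of windows held 5 of the 10 genes, in 8 windows: Ccdc153, Tmem212, Kl, Aqp1 and Otx2, the last with 4. Neither the full X-box (in 4.62% of all windows), nor the forkhead motif GTAAACA (3.65%), nor the Otx2-type motif TAATCC (7.06%) was found in the windows of Ccdc153, Tmem212, Kl or Aqp1, on either strand. TAATCC was found in 1 of the Otx2 windows. A match describes letters only and is not evidence of binding.

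The libraries held 67.6 to 104.4 M counts in PFC and 45.9 to 120.8 M in NAc. Levels are given as CPM, counts for each M counts of the library, and 3 counts, the least called a detectable level here, equal 0.0363 CPM in the median PFC library and 0.0406 CPM in the median NAc library. The labels of the regions matched their neuronal markers: 8 genes of striatal neurons summed to 1768 to 4708 CPM in NAc and 103 to 179 CPM in PFC. A list of 6 genes of cortical excitatory neurons summed to 1777 to 2180.1 CPM in PFC, but to 30.95 to 1001 CPM in NAc, a 32.3-fold range between NAc libraries. A list of 5 lateral septum genes, a region beside the NAc, summed to 47.9 to 200.5 CPM in NAc. Some libraries stood apart: those of mice 8, 26 and 48 in NAc for the ependymal genes, of mice 48, 49 and 52 in NAc for Ttr, and of mice 15, 38 and 51 in PFC for Aqp1. Results that rest on them are given with and without them. In a bulk sample such as these punches, fewer cells of a type and less RNA per cell cannot be told apart.

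All 4 ependymal genes were higher in NAc than in PFC. Foxj1, the master regulator of motile cilia, ranged from 0.351 CPM through a median of 1.08 to 2.12 CPM over the 48 PFC libraries and from 1.66 through 4.39 to 14.5 CPM over the 48 NAc libraries. It was higher in NAc in 48 of 48 mice, although the highest PFC libraries overlapped the lowest NAc ones, and the difference was 1.957 on the log2 scale (SE 0.122, Benjamini-Hochberg adjusted p = 8.86e-19, edgeR with the mouse as a block). Rarres2, which encodes the secreted chemoattractant chemerin, lay between 0.795 and 2.00 CPM in PFC with a median of 1.33, and between 2.13 and 14.3 CPM in NAc with a median of 4.64. Its values in the regions did not overlap, and it was higher in NAc by 1.66 on the log2 scale (SE 0.105, edgeR adjusted p = 1.19e-18). The counting is not stated to use strand and Rarres2 overlaps Lrrc61 on the other strand, so some of its reads may belong to that gene.

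The other ependymal genes were close to absent from PFC. Ccdc153, a coiled-coil protein of motile cilia, had no count in 9 PFC libraries, a median of 0.0275 and a highest value of 0.634 CPM, against 0.1096, 2.47 and 12.9 CPM as lowest, median and highest in NAc. Tmem212, a membrane protein used as a marker of ependymal cells, had no count in 41 PFC libraries and 52 counts over all 48, and ranged from 0 in 2 libraries through 0.962 to 5.57 CPM in NAc. Ccdc153 was higher in NAc in 48 of 48 mice and Tmem212 in 46 of 48. The fitted differences were 5.63 (SE 0.315, edgeR adjusted p = 4.89e-20) for Ccdc153 and 8.43 (SE 0.455, edgeR adjusted p = 3.08e-14) for Tmem212 on the log2 scale. From the summed counts of each region, Ccdc153 was 46.8-fold and Tmem212 104-fold higher in NAc, whereas the fitted differences equal 49.5-fold and 344-fold. With 41 PFC libraries at 0, the size and SE of the fitted Tmem212 difference are poorly determined.

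The 6 choroid plexus genes did not share one pattern between the regions. Clic6, a member of the chloride intracellular channel family, was the most abundant of the 10 in NAc, at 12.4, 19.01 and 27.2 CPM (lowest, median and highest), against 0.0223, 0.156 and 0.768 CPM in PFC. Otx2, a homeodomain transcription factor, had no count in 35 PFC libraries and 30 counts over all 48, against 0.465, 2.02 and 5.12 CPM in NAc. Kl, the co-receptor klotho, ranged from 1.54 through 2.62 to 4.06 CPM in PFC and from 7.16 through 11.46 to 19.1 CPM in NAc. The regions did not overlap in any of these 3 genes. On the log2 scale Clic6 was higher in NAc by 6.41 (SE 0.127, edgeR adjusted p = 3.82e-36), Otx2 by 8.24 (SE 0.214, adjusted p = 1.15e-31) and Kl by 2.03 (SE 0.0518, adjusted p = 1.13e-34).

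Ttr and Folr1, whose products carry thyroid hormone and folate across the choroid plexus, differed less between the regions and overlapped. Ttr ranged from 0 in 2 libraries through 0.266 to 4.14 CPM in PFC and from 0.0129 through 0.980 to 28.5 CPM in NAc. Folr1 stayed between 0 and 0.169 CPM in PFC, with a median of 0.0525, and between 0 and 0.740 CPM in NAc, with a median of 0.103; 6 libraries of each region had no count. Both were higher in NAc in 36 of 48 mice, Ttr by 1.41 (SE 0.374, edgeR adjusted p = 0.000711) and Folr1 by 1.01 (SE 0.378, edgeR adjusted p = 0.0124) on the log2 scale. Folr1 overlaps Anapc15 on the other strand, and its median was under 3 times the detectable level in both regions. Within cohorts 1, 2 and 3 the difference was 0.61, 2.205 and 1.85 for Ttr, not called in cohort 1 (adjusted p = 0.265), and 1.02, 1.197 and 0.77 for Folr1, called in cohort 2 only. The other 7 genes higher in NAc were called in each cohort.

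Aqp1, the water channel of the choroid plexus, was the exception in direction. It ranged from 0.0878 through 0.240 to 7.47 CPM in PFC and from 0.0136 through 0.196 to 0.532 CPM in NAc, and fell by 0.87 on the log2 scale from PFC to NAc (SE 0.193, edgeR adjusted p = 6.47e-05). It was nevertheless higher in NAc in 16 of 48 mice, and 3 PFC libraries described further on lay far above the rest. Without these 3 mice the difference was -0.67 (edgeR adjusted p = 0.000715), and within cohorts 1, 2 and 3 it was -1.21, -0.43 and -0.66, not called in cohort 2 (adjusted p = 0.285).

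**Figure D1:**
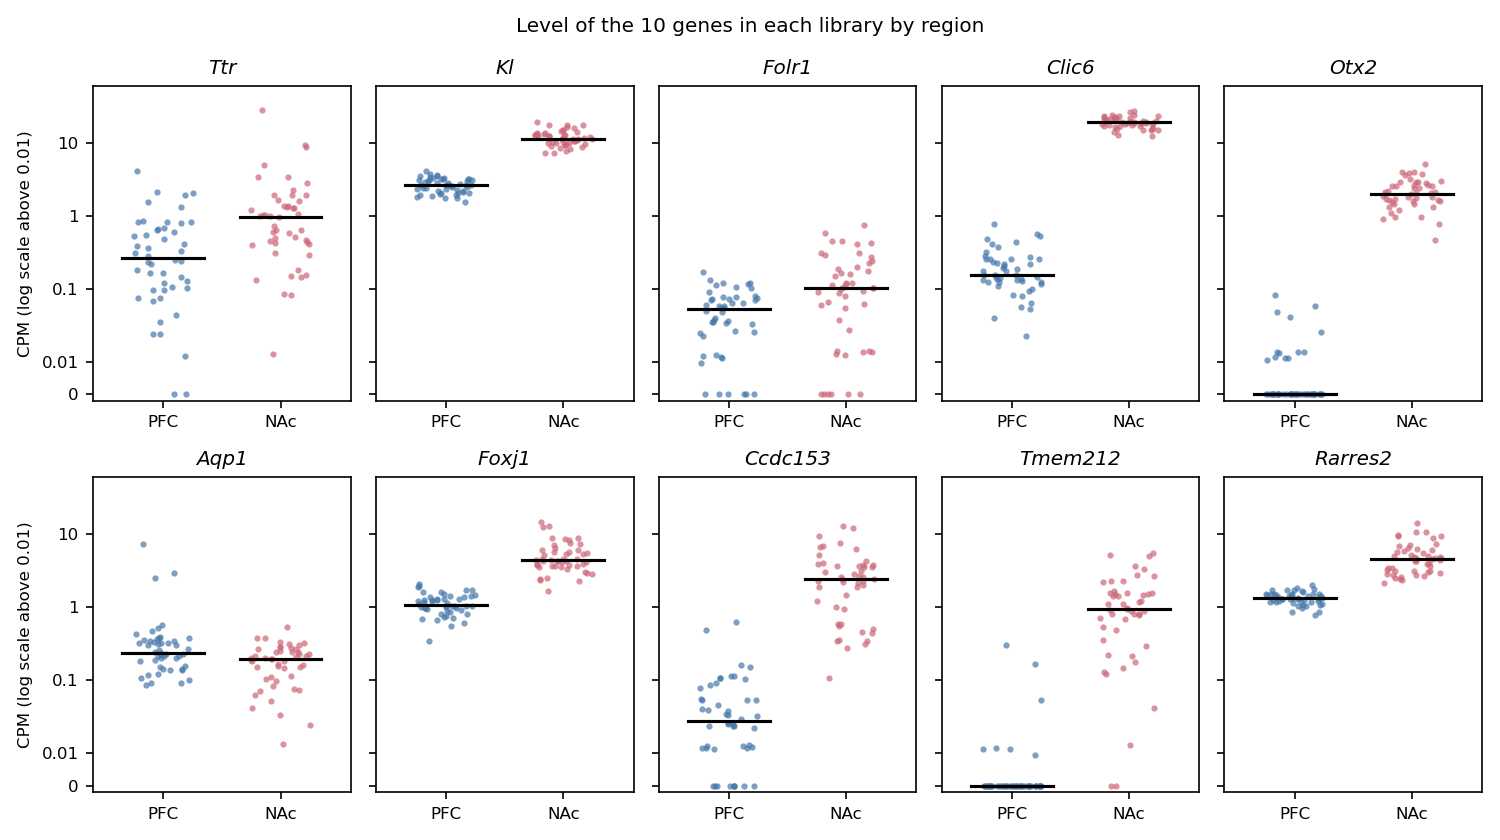
Level of each of the 10 genes in every library, as CPM on an axis that is logarithmic above 0.01 CPM and linear from there to 0, PFC beside NAc, 48 points a region, with the bar at the median. Clic6, Otx2, Kl and Rarres2 do not overlap between the regions, while Ttr, Folr1 and Aqp1 do, and Ttr, Ccdc153 and Tmem212 have the longest columns in NAc.

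These calls have to be read against how far the regions differ as a whole: edgeR called 17255 of 19918 genes (86.6%), 44.4% of all genes as higher in NAc and 42.3% as lower, with a median difference over all genes of 0.02. Of the 10 genes, 10 were called, 9 of them higher. The share of all genes whose values did not overlap between the regions was not computed. The lack of overlap in Clic6, Otx2, Kl and Rarres2 therefore has no such background. Between genes, levels were compared per kilobase of exon. In NAc the median CPM per kilobase was 4.86 for Clic6, 1.75 for Rarres2, 1.67 for Foxj1, 1.34 for Tmem212, 1.23 for Kl, 1.21 for Ccdc153, 0.826 for Ttr, 0.479 for Otx2, 0.0745 for Aqp1 and 0.0447 for Folr1. The ranges of each pair of neighbours in that order overlapped. By these medians Ttr, commonly the leading transcript of the choroid plexus, was below Clic6, Kl and the ependymal genes per length. That order applies to medians only, since a few NAc libraries held far more Ttr. Folr1 was near the limit of detection.

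The other genes of both structures were described from lists chosen with these data known. Of 29 other genes of ependyma and motile cilia, 25 were higher and 2 lower in NAc, with a median difference of 1.26 on the log2 scale. The largest differences among them were 7.34 for Sntn, a ciliary tip protein, 6.30 for 1700012B09Rik, 4.41 for Dnah11, a dynein heavy chain, and 4.38 for Ak7, an adenylate kinase of cilia. Of 7 regulators of multiciliated cells, 5 were higher and 1 lower: Myb by 4.11, Ccno by 1.48 and Mcidas by 1.31, while Gmnc fell by 3.18. Of 18 other choroid plexus genes, 7 were higher and 7 lower, with a median of -0.17. Car12 (3.71) and Prlr (3.66) were higher, and Kcnj13, a potassium channel of that epithelium, was lower (-4.99), as was Wfdc2 (-4.08). Kcne2 and Cldn2, which are also markers of that epithelium, were not called. The ependymal list thus followed Foxj1, Ccdc153, Tmem212 and Rarres2 in direction, and the choroid plexus list divided evenly in direction.

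Of 14 genes whose products work with those of the 10 (receptors, ligands and hormone handling), 3 were higher and 10 lower in NAc. Stra6 (1.49), the retinol transporter, was higher, and Hr (-1.23), Dio2 (-1.05), the deiodinase that activates thyroid hormone, and Cmklr1 (-0.91), the chemerin receptor, were lower. Lists of neighbouring cell types moved as well: 11 of 12 genes of neuroblasts and dividing cells of the ventricular wall were higher in NAc, led by Igfbpl1 (7.62), Top2a (4.51), Mki67 (3.44) and Dlx5 (1.94). Of 5 lateral septum genes, 5 were higher, among them Nts (7.54), Crhr2 (2.10), Zic1 (1.42) and Zic4 (0.76). Genes of meninges and fibroblasts were lower in 10 of 10. Their part in the differences of the 10 genes was not tested.

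Within a region, edgeR called no change with genotype or stress in any of the 10 genes, and DESeq2 called 1, that of Aqp1 for stress by gonad in PFC. The edgeR models within a region had the 8 groups and the cohort as terms, and 10 comparisons were made in each. In NAc the 10 genes passed the filter on low counts, and in PFC 6 did (Ttr, Kl, Clic6, Aqp1, Foxj1 and Rarres2), while Folr1, Otx2, Ccdc153 and Tmem212 were too low there to be tested. edgeR called none in any of the 20 comparisons at a Benjamini-Hochberg adjusted p below 0.05. For stress against control, edgeR called 0 of 19292 genes in PFC (0%) and 0 of 19684 in NAc (0%), with 1105 and 903 genes at an unadjusted p below 0.05. DESeq2 called 2 genes in each region and limma-voom 5, none of them among the 10. For XX against XY chromosomes, 217 genes (1.12%) were called in PFC and 115 (0.584%) in NAc, and for testes against ovaries 9 (0.0467%) and 2 (0.0102%). In the other 14 comparisons, which were stress within each of the 4 genotypes and 3 interactions in each region, edgeR called 0%, with 491 to 1762 genes at an unadjusted p below 0.05. For stress by gonad in PFC, DESeq2 called 6 genes, Aqp1 among them. DESeq2 and limma-voom called 28 and 4 genes for stress in XY- in PFC, and DESeq2 called 1 for chromosome by gonad in PFC, none of them among the 10. In XY- in PFC, DESeq2 gave no adjusted p to the 6 genes tested there, whose counts were under its own filter.

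The ependymal genes spread widely within every NAc group and their medians did not separate by treatment. Ccdc153 ranged from 0.1096 through 2.62 to 12.4 CPM in the 24 control NAc libraries and from 0.275 through 2.15 to 12.9 CPM in the 24 stressed ones. The groups overlapped over nearly their whole range, and the difference was -0.17 on the log2 scale (SE 0.5003, edgeR adjusted p = 0.997), with an approximate 95% interval of -1.15 to 0.81. Foxj1 ranged from 2.32 through 4.96 to 12.98 CPM in controls and from 1.66 through 4.28 to 14.5 CPM under stress, a difference of -0.15 (SE 0.233, edgeR adjusted p = 0.997; interval -0.61 to 0.31). For Tmem212 the difference with stress was -0.32 (interval -1.38 to 0.75) and for Rarres2 -0.13 (interval -0.61 to 0.34). The intervals of these 4 genes thus held changes of either sign.

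Kl and Clic6 were the most evenly expressed of the 10 genes in NAc. Kl ranged from 7.20 through 11.3 to 17.6 CPM in controls and from 7.16 through 11.54 to 19.1 CPM under stress, a difference of 0.05 (SE 0.112, edgeR adjusted p = 0.997; interval -0.17 to 0.27). Clic6 ranged from 14.8 through 18.6 to 27.2 CPM in controls and from 12.4 through 19.3 to 24.4 CPM under stress, a difference of 0.03 (SE 0.0772, edgeR adjusted p = 0.997; interval -0.12 to 0.18). Otx2 differed by -0.29 with stress (interval -0.72 to 0.15) and Folr1 by 0.17 (interval -0.99 to 1.34). Aqp1 differed by 0.27 (interval -0.29 to 0.82). The largest stress difference of the 10 in NAc was that of Ttr, at 0.80 (interval -0.44 to 2.05, edgeR adjusted p = 0.997), and it was 0.0366 without mouse 52. By chromosomes, XX minus XY, the 10 genes differed in NAc by between -0.37 (Ccdc153) and 0.62 (Ttr), and by gonad, testes minus ovaries, by between -0.11 (Otx2) and 1.19 (Ttr).

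Ttr in NAc was the gene with the largest gonad difference of the 10. It ranged from 0.0849 through 1.01 to 28.5 CPM in the 24 NAc libraries of mice with testes and from 0.0129 through 0.680 to 4.95 CPM in the 24 with ovaries. The groups overlapped over most of their range and the difference of 1.19 (SE 0.565, unadjusted p = 0.0423) was not called (edgeR adjusted p = 0.532). It was 0.43 without mouse 52 and -0.18 (adjusted p = 0.925) without mice 48, 49 and 52, the 3 highest in Ttr, so it rested on those libraries.

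In PFC the 7 smallest unadjusted p-values belonged to Aqp1, Foxj1 and Kl. Stressed and control mice differed in Aqp1 by 2.08 (SE 0.677, unadjusted p = 0.00390, edgeR adjusted p = 0.314) in XY- and by -2.21 (SE 0.758, unadjusted p = 0.00595, edgeR adjusted p = 0.803) in XXSry, and the interaction of stress with gonad was -3.31 (SE 0.752, unadjusted p = 7.98e-05). edgeR did not call that interaction (adjusted p = 0.220, 0 genes called), whereas DESeq2 did (-3.19, adjusted p = 0.0161, among 6 genes called). Without the 3 mice whose PFC libraries were highest in Aqp1 (15, 38 and 51) the edgeR value of the interaction was -1.13 (adjusted p = 0.890), the difference in XY- was 0.27 (adjusted p = 0.878) and that in XXSry was -1.21 (adjusted p = 0.815), so their sizes rested on those libraries. Foxj1 in PFC had an interaction of stress with chromosomes of -0.77 (SE 0.232, unadjusted p = 0.00186, edgeR adjusted p = 1) and a stress difference in XXSry of -0.68 (SE 0.236, unadjusted p = 0.00585, edgeR adjusted p = 0.803). Kl in PFC was 0.53 higher with stress in XX (SE 0.190, unadjusted p = 0.00806, edgeR adjusted p = 1): control XX values were 1.54 to 2.35 CPM, with a median of 1.89, and stressed ones 1.79 to 3.73 CPM, with a median of 2.79. The interaction of stress with gonad for Kl was -0.45 (SE 0.174, unadjusted p = 0.0137, edgeR adjusted p = 0.655).

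**Figure D2:**
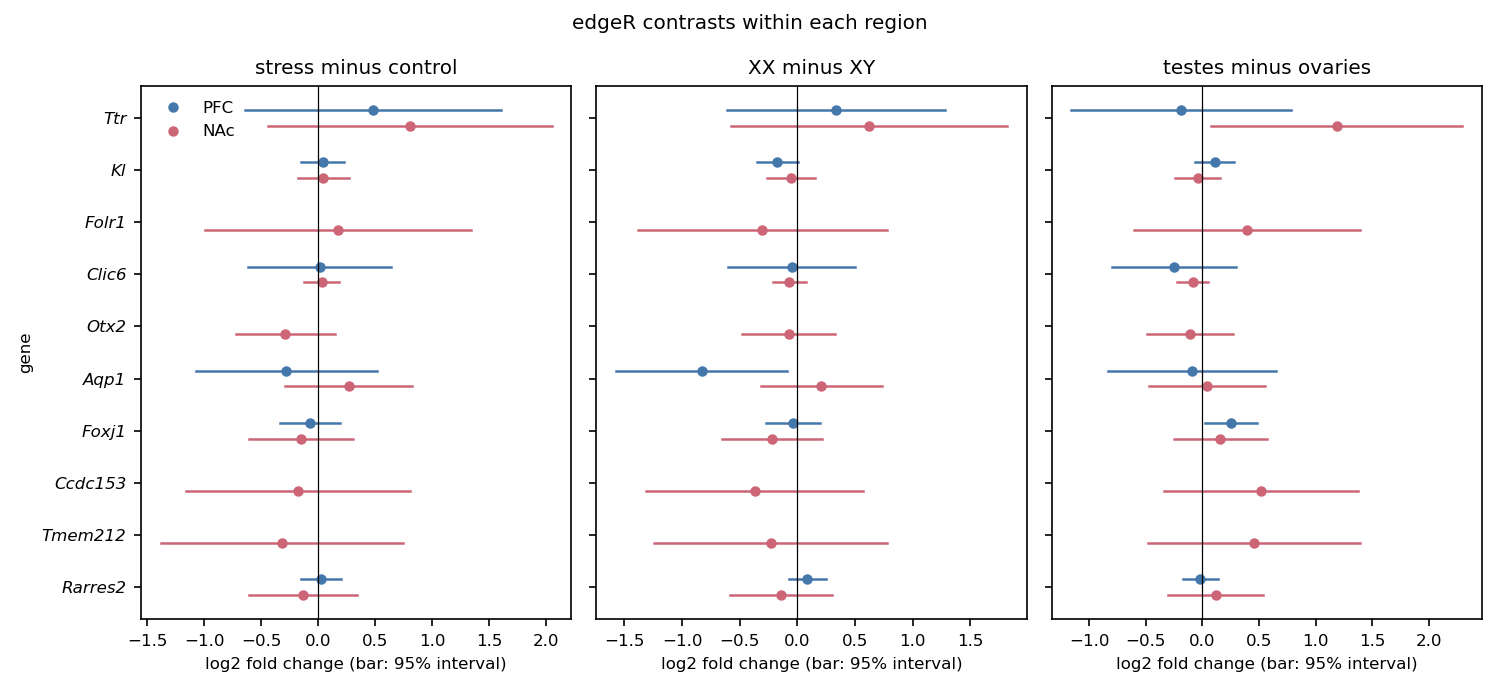
Differences on the log2 scale for stress minus control, XX minus XY and testes minus ovaries, with bars for approximate 95% intervals, for the genes tested in PFC and in NAc. None was called after adjustment, and the interval is narrow for Kl and Clic6 in NAc and wide for Ttr, Folr1, Ccdc153 and Tmem212.

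No dependence of the regional difference on genotype or stress was detected for the 10 genes. In the fit over both regions, the interaction of region with stress was called for 0 of 19918 genes (0%), that with chromosomes for 3 (0.0151%) and that with gonad for 0 (0%), none of them among the 10. The interactions of Tmem212 could not be fitted, since most of its PFC libraries were at 0.

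The spread between NAc libraries was far larger than the differences between groups. Of the variance of log2 levels in NAc, membership in the 8 groups accounted for between 3.29% (Rarres2) and 18.1% (Clic6), with 11.97% for Ccdc153 and 4.87% for Ttr. The SD of Ttr, Tmem212 and Ccdc153 over NAc libraries was above that of 99.9% of the genes tested, that of Folr1 above 98.8%, Rarres2 97.0%, Foxj1 96.7%, Otx2 95.6%, Aqp1 89.3%, Kl 67.7% and Clic6 55.9%. The highest NAc library exceeded the lowest 118-fold in Ccdc153, 11.02-fold in Otx2, 8.74-fold in Foxj1 and 6.74-fold in Rarres2, but 2.66-fold in Kl and 2.196-fold in Clic6. Ttr ran from 1 count in its lowest NAc library (0.0129 CPM) to 1782 counts in its highest (28.5 CPM).

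**Figure D3:**
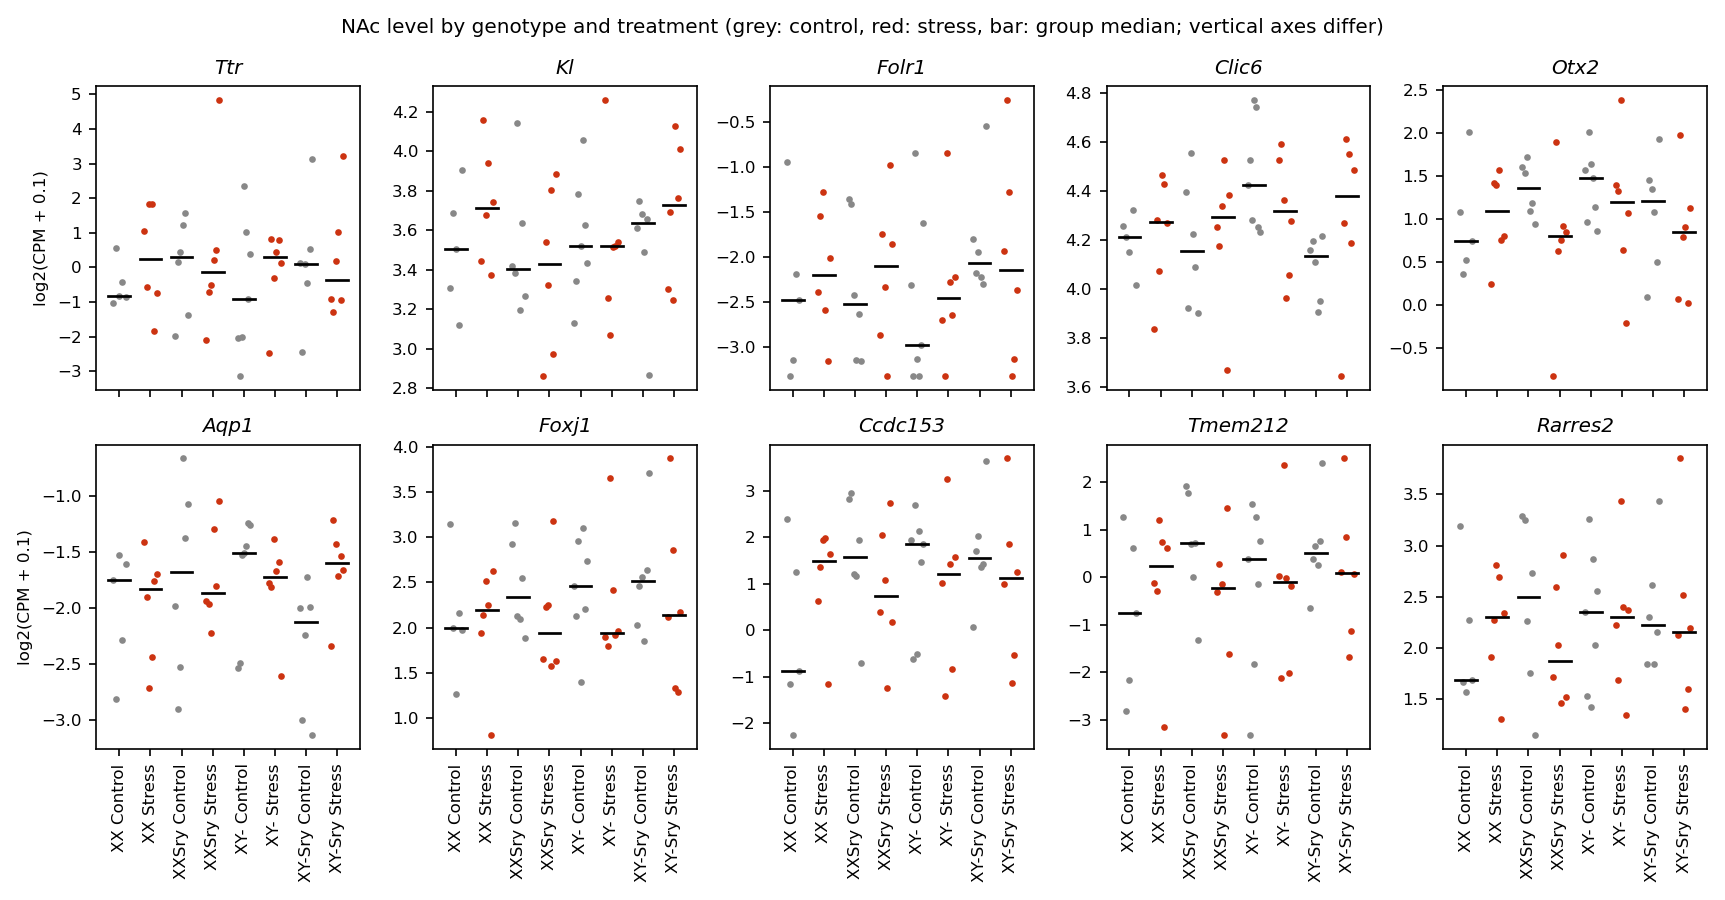
Level of each of the 10 genes in NAc, as log2(CPM + 0.1), by genotype and treatment, 5 to 7 libraries a group, with the bar at the group median. The groups overlap in every gene, and 3 libraries, 1 stressed and 1 control XY-Sry and 1 stressed XY-, stand at the top in Foxj1, Ccdc153, Tmem212 and Rarres2.

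The spread was compared between regions as the mean absolute deviation of log2(CPM + 0.1) from the group median. Region labels were exchanged within mice in 100000 permutation draws (two-sided). The p-values printed are unadjusted, while calls used the Benjamini-Hochberg adjusted permutation p over the 10 genes, below 0.05. For Foxj1 that adjusted permutation p was 0.0418. Libraries spread more in NAc over all genes tested too, with a median SD of log2 levels within groups of 0.215 there and 0.136 in PFC. Whether the 10 genes exceeded that general difference was not tested. The mean absolute deviation was larger in NAc for Rarres2 (0.501 against 0.194, permutation p = 3e-05) and for Foxj1 (0.459 against 0.286, permutation p = 0.0292), which were measured well in both regions. It was also larger for Ccdc153 (1.05 against 0.359, permutation p = 6e-05), Tmem212 (1.05 against 0.0976, permutation p = 1e-05), Otx2 (0.449 against 0.0891, permutation p = 1e-05) and Folr1 (0.633 against 0.285, permutation p = 2e-05), where 1e-05 is the smallest the draws can give. Many PFC values of these 4 genes lie under the added 0.1, which holds their PFC spread down: with 0.01 added in its place, the difference in spread was 0.10 for Ccdc153 and 0.01 for Otx2 and was not called. The difference for Foxj1 went from 0.17 to 0.09 without mice 8, 26 and 48, and was not called then. For Clic6 the spread was smaller in NAc (0.176 against 0.435, permutation p = 0.00013), where the gene had far more counts, but larger there by 0.06 with 1 added in place of 0.1. For Kl (0.245 against 0.227, permutation p = 0.645), Ttr (1.14 against 0.957, permutation p = 0.379) and Aqp1 (0.392 against 0.494, permutation p = 0.442) the spreads did not differ beyond what the draws gave.

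In NAc the 4 ependymal genes rose and fell together from library to library. Spearman's rho between them over the 48 NAc libraries lay between 0.90 and 0.95, the highest for Ccdc153 with Rarres2 and the lowest for Foxj1 with Tmem212. Folr1, named here as a choroid plexus gene, followed them with rho of 0.70 to 0.75, and Otx2 with 0.49 to 0.63. Ttr, Kl, Clic6 and Aqp1 did not: their rho with the 4 ependymal genes lay between -0.20 and 0.04. All genes of a library share its depth and dissection, and these values are descriptions. The 6 choroid plexus genes did not move as a group either, since rho between Ttr and the other 5 lay between -0.07 and 0.13, and the highest value between any 2 of the 6 was 0.37, for Clic6 with Otx2. In these NAc libraries the name choroid plexus describes how the 6 genes were chosen and not a shared behaviour. In PFC, Folr1 and Clic6 rose with the mean of the other 5 choroid plexus genes, with r of 0.444 and 0.465. The Benjamini-Hochberg adjusted permutation p was 0.00664 and 0.00404 over the 40 relations of genes with such means. Without the 2 farthest libraries r was 0.287 and 0.268, and Ttr, Kl, Otx2 and Aqp1 were not called. In PFC the highest rho among the 10 genes was 0.50, for Ccdc153 with Tmem212.

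**Figure D4:**
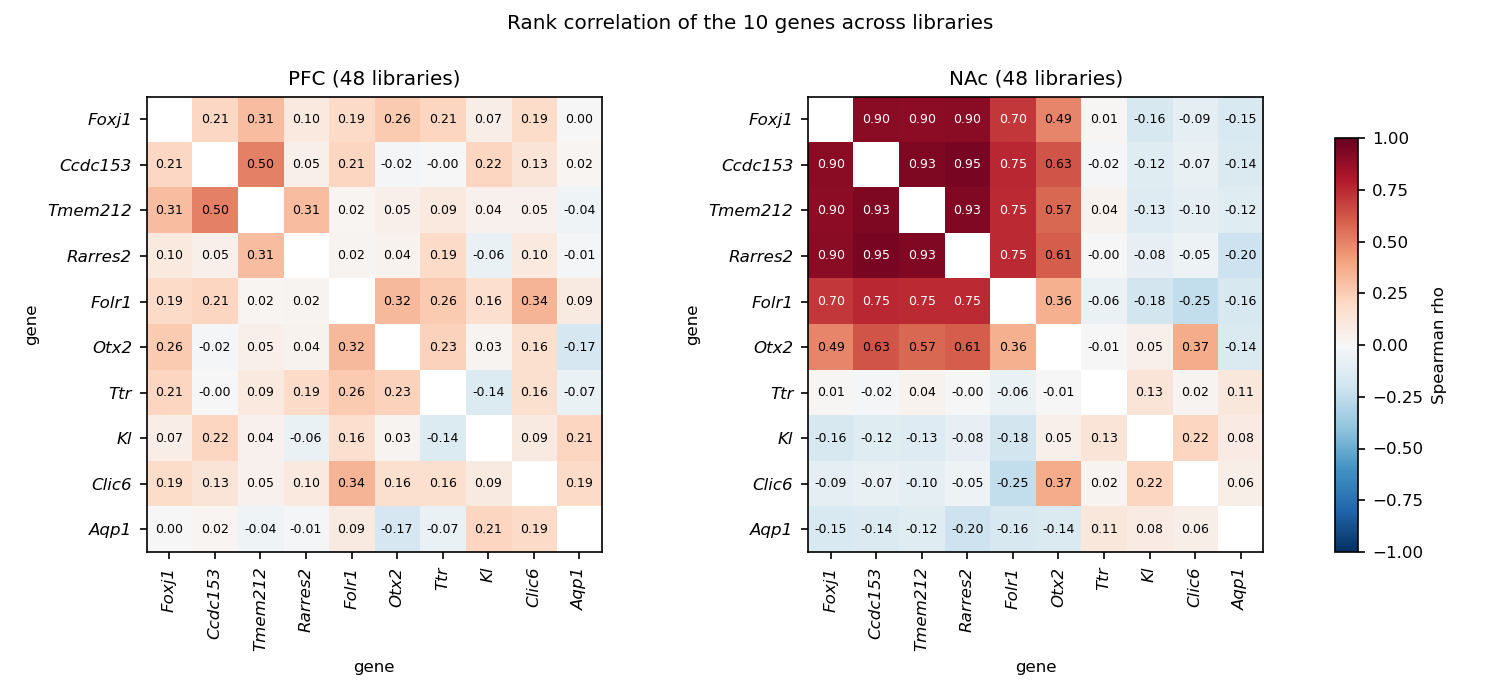
Spearman's rho between each pair of the 10 genes over 48 libraries, in PFC and in NAc, by colour. The block of Foxj1, Ccdc153, Tmem212 and Rarres2 in NAc holds values of 0.90 to 0.95, with Folr1 and Otx2 beside it, and PFC has no such block.

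The same genes followed the 29 other genes of ependyma and motile cilia, which are not among the 10. Against the mean log2(CPM + 0.1) of that list over the 48 NAc libraries, Pearson's r and Spearman's rho were 0.970 and 0.971 for Ccdc153, 0.951 and 0.946 for Rarres2, 0.946 and 0.956 for Tmem212, 0.894 and 0.903 for Foxj1, 0.799 and 0.741 for Folr1 and 0.619 and 0.623 for Otx2. Each had a permutation p of 1e-05, the smallest that 100000 draws can give, and a Benjamini-Hochberg adjusted p of 0.000118 for r and 0.00013 for rho over the 260 relations computed between the 10 genes and 13 lists in both regions. Leaving out the 2 libraries farthest from the median of the list left r at 0.972 for Ccdc153, 0.865 for Foxj1, 0.750 for Folr1 and 0.549 for Otx2. Within cohorts 1, 2 and 3, r was 0.971, 0.973 and 0.970 for Ccdc153, 0.954, 0.925 and 0.978 for Rarres2, 0.954, 0.943 and 0.954 for Tmem212 and 0.855, 0.891 and 0.964 for Foxj1. It was 0.858, 0.553 and 0.831 for Folr1 and 0.559, 0.625 and 0.731 for Otx2. For Ttr (r = -0.00065, rho = -0.0278), Kl (-0.164 and -0.0860), Clic6 (-0.0949 and -0.0347) and Aqp1 (-0.142 and -0.103) no relation was called. In PFC, r with the list was 0.494 for Ccdc153 and 0.596 for Tmem212, but 0.0681 and 0.0928 without the 2 farthest libraries, so those relations rested on them.

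**Figure D5:**
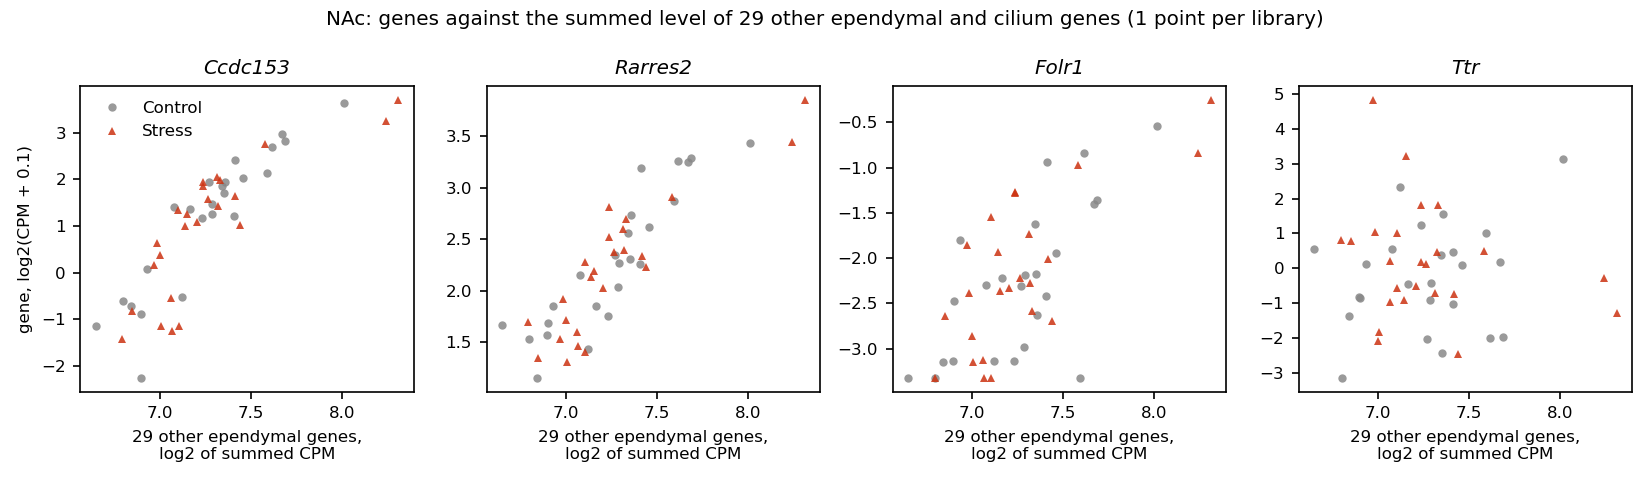
Level of Ccdc153, Rarres2, Folr1 and Ttr in NAc, as log2(CPM + 0.1), against the log2 of the summed CPM of the 29 other genes of ependyma and motile cilia, 1 point a library, grey circles for controls and red triangles for stressed mice. Ccdc153 and Rarres2 rise along the whole axis, Folr1 rises with more scatter, and Ttr does not.

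An ependymal mean was taken as the mean log2 level of Foxj1, Ccdc153, Tmem212 and Rarres2, not standardised by gene. Ccdc153 and Tmem212 weighed more in it, with NAc SDs of 1.48 and 1.53 against 0.68 for Foxj1 and 0.70 for Rarres2. Over all genes of NAc, 129 of 19674 (0.656%) had a rho of at least 0.8 with that mean. Of the 29 other ependymal genes 21 did, with a median rho of 0.87 against -0.01 over all genes. Of the other choroid plexus genes tested 2 of 16 did, Calml4 (0.87) and 1500015O10Rik (0.86), and of the 7 regulators of multiciliated cells 1 did, Myb (0.80). The 10 genes most like the ependymal mean were Fam216b (0.973), Dnah12 (0.967), Cfap43 (0.965), Dnali1 (0.963), Sap30bpos (0.963), Col8a2 (0.961), Ccdc180 (0.953), Dnah3 (0.952), Cfap52 (0.949) and Ak7 (0.947), of which Dnah12, Dnah3 and Dnali1 are dynein chains of the axoneme. In PFC the highest value was 0.60, for Car2. The genes most like the mean of the 6 choroid plexus genes reached only 0.60 in NAc (Stpg1) and 0.58 in PFC (Pbx3).

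The genes outside the ependymal block went with other tissue markers in NAc. Otx2 rose with the 5 lateral septum genes (r = 0.852, rho = 0.868, both with the smallest permutation p of 1e-05), with r of 0.835, 0.873 and 0.934 within cohorts 1, 2 and 3. Its most similar genes, chosen after their values were seen, were Zic4 (rho 0.86), Zic1 (0.85) and Vwa5b1 (0.84). Zic4 and Zic1 are themselves among the 5 lateral septum genes, so their likeness repeats the relation with that list. Clic6 fell with the 6 cortical excitatory genes (r = -0.696, rho = -0.753, within cohorts -0.741, -0.516 and -0.727) and rose with the 8 striatal ones (r = 0.435, rho = 0.528, within cohorts 0.714, 0.450 and 0.246). Kl also fell with the cortical genes (r = -0.545, rho = -0.395, within cohorts -0.620, -0.119 and -0.590). Its most similar genes, again chosen after their values were seen, were Stard5 (0.82) and Cartpt (0.77). Rarres2 and Ccdc153 also rose with the septal list, with r of 0.641 and 0.619, and fell with the 6 oligodendrocyte genes, with r of -0.502 and -0.430. Within cohorts these values lay between 0.480 and 0.759 for the septal list and between -0.634 and -0.239 for the oligodendrocyte list. The ependymal genes also rose with the 12 genes of neuroblasts and dividing cells, with r from 0.574 (Foxj1) to 0.621 (Rarres2), with the 7 regulators of multiciliated cells, with r from 0.779 (Foxj1) to 0.801 (Rarres2), and with the 18 other choroid plexus genes, with r from 0.641 (Foxj1) to 0.688 (Ccdc153). In PFC, Kl rose with the 18 other choroid plexus genes (r = 0.450, rho = 0.469, within cohorts 0.466, 0.394 and 0.529, and 0.384 without the 2 farthest libraries). These relations had a Benjamini-Hochberg adjusted permutation p below 0.05 for both r and rho over the 260 computed. The part of these other cell types in the levels of the 10 genes was not tested.

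Between the regions of a mouse, no relation of a level was called, and the largest was that of Kl. Its r between PFC and NAc over 48 mice was 0.393 (permutation p = 0.00619) and rho 0.377 (permutation p = 0.00911), with Benjamini-Hochberg adjusted values of 0.0743 and 0.109 over the 12 relations computed. Within cohorts 1, 2 and 3 the r of Kl was 0.444, 0.359 and 0.268. For the others r lay between -0.105 (Folr1) and 0.129 (Rarres2), with 0.047 for Ccdc153 and 0.0604 for Ttr.

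A few libraries stood far above their group, each named by the number of its mouse. In NAc, mouse 8 (stressed XY-Sry, cohort 3), mouse 48 (control XY-Sry, cohort 2) and mouse 26 (stressed XY-, cohort 3) had 12.9, 12.4 and 9.39 CPM of Ccdc153, against at most 7.68 CPM in the other 45 libraries. They were also the highest 3 in Foxj1 (14.5, 12.98 and 12.5 CPM), Tmem212 (5.57, 5.18 and 5.07 CPM), Rarres2 (14.3, 10.7 and 10.7 CPM) and Folr1 (0.740, 0.586 and 0.459 CPM). They were not alike in Ttr, which was 0.306, 8.66 and 0.716 CPM. Of 19684 genes tested, 139 were higher in these 3 libraries than in any other, and 0 by more than 1 log2 unit. The leading ones were Tsnaxip1, Dthd1, Ccdc170 and Adgb, which were chosen after their values were seen. Without the 3 mice, r with the other ependymal genes over 45 libraries was 0.971 for Ccdc153, 0.932 for Rarres2, 0.940 for Tmem212, 0.845 for Foxj1, 0.717 for Folr1 and 0.515 for Otx2.

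The high Ttr libraries of NAc were other ones. Mouse 52 (stressed XXSry, cohort 1) had 28.5 CPM of Ttr, which is 34.04 times its group median, mouse 49 (stressed XY-Sry, cohort 3) 9.20 CPM and mouse 48 8.66 CPM, against at most 4.95 CPM in the other 45. Mouse 52 was low in the ependymal genes, with 1.02 CPM of Ccdc153 and 0.224 CPM of Tmem212. Besides Ttr itself, Defb42 was the only gene higher in these 3 libraries than in all others. Of the other choroid plexus genes, Folr1 in these mice was 0.176, 0.0946 and 0.586 CPM.

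In PFC the highest libraries were set apart by Aqp1. Mouse 15 (stressed XY-, cohort 1) had 7.47 CPM, mouse 38 (control XY-Sry, cohort 1) 2.98 CPM and mouse 51 (control XXSry, cohort 1) 2.55 CPM, against at most 0.574 CPM in the other 45. In these libraries 90 of 19292 genes tested were above every other library. Of them 12, Aqp1 included, were above by more than 1 log2 unit. The leading ones were Eomes, a transcription factor, with 22.96, 7.66 and 12.7 CPM against at most 0.293 CPM elsewhere, and Th, the enzyme that limits dopamine synthesis, with 20.9, 11.3 and 13.999 CPM against at most 1.37 CPM. Trh, Cdhr1, Doc2g, Slc6a3, Calb2, Scgn, Sp8, Tbx21 and Grem1 were the rest of the 12. These names were chosen after their values were seen, and their part in the Aqp1 values was not tested. Of the other choroid plexus genes, Clic6 in the same 3 libraries was 0.768, 0.445 and 0.373 CPM, above the median of 0.154 CPM in the other 45, and highest of all in mouse 15. Folr1 was also highest of all in mouse 15 (0.169 CPM), but 0.103 and 0.00956 CPM in mice 38 and 51. Ttr was 0.820, 0.331 and 0.0956 CPM, within the range of the others.

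The highest PFC values of Ccdc153 and Tmem212 were those of mouse 34 (control XXSry, cohort 2), with 0.634 CPM of Ccdc153 and 0.167 CPM of Tmem212, and of mouse 30 (stressed XY-Sry, cohort 1), with 0.483 and 0.308 CPM. These correspond to 53 and 14 counts in the first and 47 and 30 counts in the second. Mice 19 and 6 (control XY-, cohorts 3 and 1) had 13 and 10 counts of Ccdc153 in PFC, and mouse 43 (stressed XX, cohort 2) had 4 counts of Tmem212, each also above 4 times its group median. The highest Ttr library in PFC was that of mouse 9 (stressed XX, cohort 3), at 4.14 CPM, which is 5.79 times its group median.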

How the data were processed

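The deposited values were raw counts per gene and library, for 96 libraries in 2 tables, 1 for each region, made by the authors from polyadenylated RNA. HISAT2 2.2.0, Trimmomatic 0.38 and FastQC 0.11.9 are listed, per the submitters' processing notes, beside edgeR, DESeq2 and build GRCm38 (mm10). The sources used here do not give the counting tool, the annotation or the use of strand. The totals exceed the average of about 45 M reads per sample in the labels, and how mates of a pair were counted is not given. Of the 19918 gene identifiers, 19795 matched a GENCODE M21 gene and 123 did not. Unused columns of sample values numbered 0.

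Counts were tested with edgeR 4.0.16 in R 4.3.3 (quasi-likelihood, TMM normalization, its default filter on low counts, 8 groups and the cohort as terms), and NAc minus PFC with the mouse as a block. P-values were adjusted over all genes tested (Benjamini-Hochberg). DESeq2 1.42.0 and limma 3.58.1 served as alternatives. CPM values were computed from the counts, spreads and correlations used log2(CPM + 0.1), and permutation tests used Python 3.11.15, numpy 2.4.6 and scipy 1.17.1 with 100000 draws. Approximate 95% intervals were derived from the SE. On counts simulated from these libraries, the PFC and NAc fits recovered 84% and 86% of genes changed 1.5-fold, with 6 and 10 false calls. The changed genes were drawn at random from those tested. The 10 genes varied more than the median gene tested, so these shares do not measure what could be detected in them. In no pair of libraries of a group did counts agree within sampling noise (lowest chi-square per degree of freedom 6.6 in PFC and 14.3 in NAc over 121 pairs each).

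Mice carry the same number in both regions in the titles, and that number was used as the pairing. Over 11154 genes the deviations of a mouse's libraries from their group means had a median correlation of 0.127, above 0.1 in 26 of 48 mice, and 7 mice correlated best with their own other region.

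The 10 genes and the lists of other genes were chosen with earlier results of these data known. Named were the 10 genes, up to 4 called genes with the largest change from each list and comparison, the 10 genes most like each mean level (at least 0.5 CPM on average, no predicted genes), and libraries above 4 times their group median in one of the 10. Other names are stated as chosen after their values were seen. Alternatives tried were other normalizations, filters, tools and pseudocounts, each cohort alone, no cohort term, no mouse block and leaving out libraries. P-values and 95% intervals measure the spread between mice, and limits of detection cover counting error only.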

Additional observations from a re-analysis of the deposited data

Results flagged for a closer look

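Dixon's test of the highest or lowest library was applied to 155 groups of 5 to 7 libraries and 19 values stood out. For normally distributed values about 1 in 20 groups, or 7.75, would do so. Groups with many libraries at 0 do not meet that condition, so no excess can be read from these counts. Otx2 in mice 35 and 30 and Tmem212 in mouse 43 stood out in PFC groups whose other libraries all had 0 CPM. In PFC the highest Aqp1 libraries of 3 groups stood apart: mouse 15 with 7.47 CPM in stressed XY-, mouse 38 with 2.98 CPM in control XY-Sry and mouse 51 with 2.55 CPM in control XXSry. Also in PFC, where most libraries had few or no counts of these genes, Otx2 stood apart in mouse 35 (control XX, 0.0832 CPM), mouse 51 (control XXSry, 0.0478 CPM), mouse 33 (control XY-Sry, 0.0586 CPM) and mouse 30 (stressed XY-Sry, 0.0411 CPM). Ccdc153 did so in mouse 34 (control XXSry, 0.634 CPM) and mouse 38 (control XY-Sry, 0.114 CPM), and Tmem212 in mouse 43 (stressed XX, 0.0548 CPM), mouse 34 (0.167 CPM) and mouse 30 (0.308 CPM).

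In NAc, high values stood apart for Ttr in mouse 52 (stressed XXSry, 28.5 CPM), for Folr1 in mouse 48 (control XY-Sry, 0.586 CPM) and for Foxj1 in mouse 26 (stressed XY-, 12.5 CPM). Low values stood apart for Ttr in mouse 14 (stressed XY-, 0.0820 CPM), for Kl in mouse 48 (7.20 CPM), for Aqp1 in mouse 41 (stressed XY-, 0.0639 CPM) and for Tmem212 in mouse 25 (stressed XX, 0.0130 CPM, 1 count). Mouse 48 was thus high in Folr1 and low in Kl within the same library.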

How the results depend on the processing

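None of the 10 genes was called for genotype or stress within a region under any alternative run, except Aqp1 for stress by gonad in PFC, where DESeq2 called 1. Over all genes, stress was called for 0 genes by edgeR in each region, for 5 by limma-voom and 2 by DESeq2 in each, for 1 in PFC with no cohort term, for 1 within cohort 1 of each region and for 1 within cohort 2 of PFC, and for 0 to 1 in PFC when each library was left out in turn. For XX minus XY, the 217 PFC genes became 356 with DESeq2, 26 and 24 within cohorts 2 and 3, and 133 without mice 15, 38 and 51. The 115 NAc genes became 76 with the stricter filter and 44, 20 and 20 within cohorts 1, 2 and 3. For testes minus ovaries, the 9 PFC genes became 14 with limma-voom, 17 with DESeq2, 0, 1 and 0 within cohorts 1, 2 and 3, and 5 without mice 15, 38 and 51. The 2 NAc genes became 19 with DESeq2 and 0 with the stricter filter, within each cohort, and without mice 8, 26 and 48 or 48, 49 and 52, with a range of 0 to 68 when each library was left out (68 without mouse 33). Fits within a cohort and with libraries left out hold fewer samples, and otherwise the cause was not tested.

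With no replicate block, NAc minus PFC was called for 10 of the 10 genes, as with it, and for 17242 genes in all; pairing by mouse changed none of the 10 calls. The stricter filter kept 4 of the 10 genes in that comparison and all 4 were called. Leaving out mice in turn was run for 16 of the 48, the lowest 2 numbers of each group. In the spread between regions, the number of genes called went from 7 to 4 with 0.01 added in place of 0.1, and the difference of Clic6 reversed, from -0.26 to 0.0571, with 1 added. For levels between the regions of a mouse, 0 relations became 1, that of Kl, without the 2 farthest libraries and also on deviations from group means. In PFC, depth limits Folr1, Otx2, Ccdc153 and Tmem212, whose medians were near or under 3 counts.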
